A study of Arabidopsis thaliana with 18 samples.

Results

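The 42 genes described here are the nuclear genes for the light-harvesting proteins and the nuclear-encoded subunits of the photosystems, out of 33602 loci counted in leaves of Arabidopsis thaliana. They were taken by locus identifier and not by a cutoff on their values, but earlier results of these data were known at that time. The set holds 6 LHCA genes for the antenna of photosystem I and 15 LHCB genes for the antenna of photosystem II. It also holds 12 PSA genes for subunits of photosystem I and 9 PSB genes for subunits of photosystem II. All 42 passed the filter on low counts. RNA came from leaf 5, whose margin and center were cut apart, of 3 genotypes: wild-type Col-0 (Col0 in the labels), the tcp2-tcp4 mutant (double mutant below) and the tcp2-tcp3-tcp4-tcp10 mutant (quadruple mutant). Each of the 6 groups had 3 libraries, and each library pooled the pieces of 15 to 20 plants. TCP2, TCP3, TCP4 and TCP10 encode leaf transcription factors that are known to end cell proliferation and that are repressed by the microRNA miR319. Which mutant alleles were combined is not given in the sources used here.

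Light-harvesting proteins bind chlorophyll in the thylakoid membrane and pass the energy they absorb to the reaction centers of the photosystems. Photosystem II takes electrons from water, and photosystem I passes them on to ferredoxin. The genes described here lie in the nucleus, their products are imported into the chloroplast, and they are known to be transcribed in step with light, the circadian clock and chloroplast development, through factors such as GLK1, GLK2 and HY5. In a growing leaf their transcripts are known to accumulate as cells leave division and chloroplasts mature.

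Plants were kept at 23 °C in days of 16 h light and 8 h dark, and leaf 5 was taken when leaf 7 emerged, at Zeitgeber time 6 (6 h after the lights came on). The lines were moved to the greenhouse in steps of 2 days, beginning with the quadruple mutant, so differences of genotype and of plant age cannot be told apart. Reads counted in genes ranged from 5.93 M to 12.0 M a library. Double mutant margin 3 and Col-0 margin 1 stood apart from the other 16 libraries, with 16.0% and 8.60% of reads aligned to several places against 3.71% to 4.97%, and with 0.209% and 0.104% of gene reads in chloroplast loci against 0.0174% to 0.0315%. As a check of the labels, TCP2 was at 60.8 to 66.3 CPM (read counts scaled to library size by TMM) in Col-0 and at 6.64 to 11.7 CPM in both mutants. TCP10 was at 4.15 to 9.98 CPM in the quadruple mutant, against 56.6 to 104 CPM in the other two genotypes.

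Promoter sequences are shown for members with the lowest adjusted p, with the largest falls or without a call in the quadruple mutant margin, as described below. Each is the stretch of 300 bases before the annotated gene start in the TAIR10.1 assembly with its RefSeq annotation, written 5′ to 3′ on the strand of the gene. Capitals mark any of 6 motifs, searched on both strands. The G-box CACGTG is bound by light-signaling factors such as HY5. The I-box GATAAG is a light-response element of many photosynthesis genes. The sequence CCAATC is bound by GLK factors, and GGNCCC is a core bound by class II TCP factors, the class of the mutated genes. The remaining motifs belong to the clock: AATATCT is the core of the evening element, and AAAATCT is the core of a site bound by the clock factor CCA1. PSBQ2, PSBQ1 and PSAH2 had the lowest adjusted p in the quadruple mutant margin, with falls near the median of the members. LHCB2.3, LHCB1.4 and LHCB4.3 fell most there, and LHCB7 was not called there. PSBQ2 (chr4:2673244-2673543, minus strand), PSBQ1 (chr4:11334052-11334351, plus strand) and PSAH2 (chr1:19454498-19454797, plus strand) come first, then LHCB2.3 (chr3:10255606-10255905, plus strand), LHCB1.4 (chr2:14524307-14524606, plus strand), LHCB4.3 (chr2:16745328-16745627, plus strand) and LHCB7 (chr1:28728698-28728997, plus strand). Their loci are AT4G05180 (PSBQ2), AT4G21280 (PSBQ1), AT1G52230 (PSAH2), AT3G27690 (LHCB2.3), AT2G34430 (LHCB1.4), AT2G40100 (LHCB4.3) and AT1G76570 (LHCB7).
PSBQ2: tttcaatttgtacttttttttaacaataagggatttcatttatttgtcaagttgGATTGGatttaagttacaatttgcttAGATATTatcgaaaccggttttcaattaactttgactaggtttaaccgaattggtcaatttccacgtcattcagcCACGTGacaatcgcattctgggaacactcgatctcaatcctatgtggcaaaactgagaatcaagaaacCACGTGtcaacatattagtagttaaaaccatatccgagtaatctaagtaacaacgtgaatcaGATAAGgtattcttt
PSBQ1: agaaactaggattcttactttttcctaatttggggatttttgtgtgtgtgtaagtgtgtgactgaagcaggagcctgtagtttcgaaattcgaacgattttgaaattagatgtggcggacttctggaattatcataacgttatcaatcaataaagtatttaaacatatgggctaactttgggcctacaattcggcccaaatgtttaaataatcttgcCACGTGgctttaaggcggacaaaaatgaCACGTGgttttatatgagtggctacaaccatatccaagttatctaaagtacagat
PSAH2: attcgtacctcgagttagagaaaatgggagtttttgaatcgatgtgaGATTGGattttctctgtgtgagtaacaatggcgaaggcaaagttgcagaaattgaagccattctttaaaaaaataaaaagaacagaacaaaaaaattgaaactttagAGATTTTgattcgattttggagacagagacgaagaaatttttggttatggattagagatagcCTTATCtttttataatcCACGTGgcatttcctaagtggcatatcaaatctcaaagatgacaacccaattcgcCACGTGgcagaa
LHCB2.3: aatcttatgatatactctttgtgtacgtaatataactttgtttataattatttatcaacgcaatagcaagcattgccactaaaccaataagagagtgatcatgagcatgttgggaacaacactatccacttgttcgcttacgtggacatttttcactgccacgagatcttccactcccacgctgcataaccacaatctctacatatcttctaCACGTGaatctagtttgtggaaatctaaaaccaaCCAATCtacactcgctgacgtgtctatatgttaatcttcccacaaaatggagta
LHCB1.4: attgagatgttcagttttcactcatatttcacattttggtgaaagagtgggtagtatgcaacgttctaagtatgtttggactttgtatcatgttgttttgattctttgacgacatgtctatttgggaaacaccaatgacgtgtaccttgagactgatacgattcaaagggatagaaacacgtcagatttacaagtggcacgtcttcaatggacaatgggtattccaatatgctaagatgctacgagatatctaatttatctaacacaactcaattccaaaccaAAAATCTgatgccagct
LHCB4.3: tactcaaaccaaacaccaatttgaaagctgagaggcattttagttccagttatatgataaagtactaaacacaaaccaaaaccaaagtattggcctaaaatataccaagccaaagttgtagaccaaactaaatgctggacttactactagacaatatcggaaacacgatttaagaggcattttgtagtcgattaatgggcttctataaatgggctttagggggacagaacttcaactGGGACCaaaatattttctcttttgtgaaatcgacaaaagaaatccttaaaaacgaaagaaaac
LHCB7: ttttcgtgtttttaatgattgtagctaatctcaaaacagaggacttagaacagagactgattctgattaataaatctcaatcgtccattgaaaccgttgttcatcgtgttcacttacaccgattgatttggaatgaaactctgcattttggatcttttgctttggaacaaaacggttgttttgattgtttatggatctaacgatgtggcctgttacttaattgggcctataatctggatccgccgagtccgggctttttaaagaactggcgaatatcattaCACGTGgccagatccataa

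PSBQ2, PSBQ1 and PSAH2 each held 2 G-boxes, LHCB2.3 and LHCB7 held 1 each, and LHCB1.4 and LHCB4.3 held none. Over all members, 9 of 42 promoters held a G-box (21.4%, against 7.09% of 27437 promoters of protein-coding genes of the same length). The sequence CCAATC was in 12 (28.6% against 12.2%), AAAATCT in 12 (28.6% against 19.6%), the I-box in 9 (21.4% against 14.5%), AATATCT in 5 (11.9% against 11.8%) and GGNCCC in 4 (9.52% against 8.20%). Among 17357 promoters of loci tested, the shares were 7.99% for the G-box, 12.7% for CCAATC and 19.4% for AAAATCT. They were 14.7% for the I-box, 11.9% for AATATCT and 9.43% for GGNCCC. No motif was found in 12 members, and 1 pair of matches overlapped. These shares depended on the window: with 250 bases before and 50 after the gene start, the window used first, 15 members held a G-box (35.7% against 7.68% of all promoters) and 17 an I-box (40.5% against 14.6%). The matches describe these letters only, and the part of any motif in the changes was not tested.

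Together the 42 genes took a large share of all gene reads, and that share was lowest in the margin of the quadruple mutant and highest in that of Col-0. It was 18.20%, 18.72% and 19.86% in the Col-0 margin libraries and 16.55%, 16.56% and 16.96% in the Col-0 center. In the double mutant it was 15.52%, 16.14% and 16.26% in the margin and 14.58%, 15.50% and 16.55% in the center. In the quadruple mutant it was 12.42%, 12.74% and 11.23% in the margin and 14.75%, 14.92% and 12.99% in the center. Col-0 libraries of the margin were therefore all above those of its center, quadruple margin libraries were all below those of its center, and the pieces of the double mutant overlapped. In bulk pieces, fewer cells that express a gene and less RNA per cell cannot be told apart.

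Each of the 4 classes was likewise highest in the Col-0 margin and lowest in the quadruple margin. The 15 LHCB genes held 10.3% ± 0.475 of gene reads in the Col-0 margin (SD, n = 3) and 6.67% ± 0.49 in the quadruple margin. The 6 LHCA genes went from 2.75% to 1.76%, the 12 PSA genes from 2.97% to 1.88% and the 9 PSB genes from 2.89% to 1.81% in the same groups. These shares are a description with no test of their own.

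**Figure D1:**
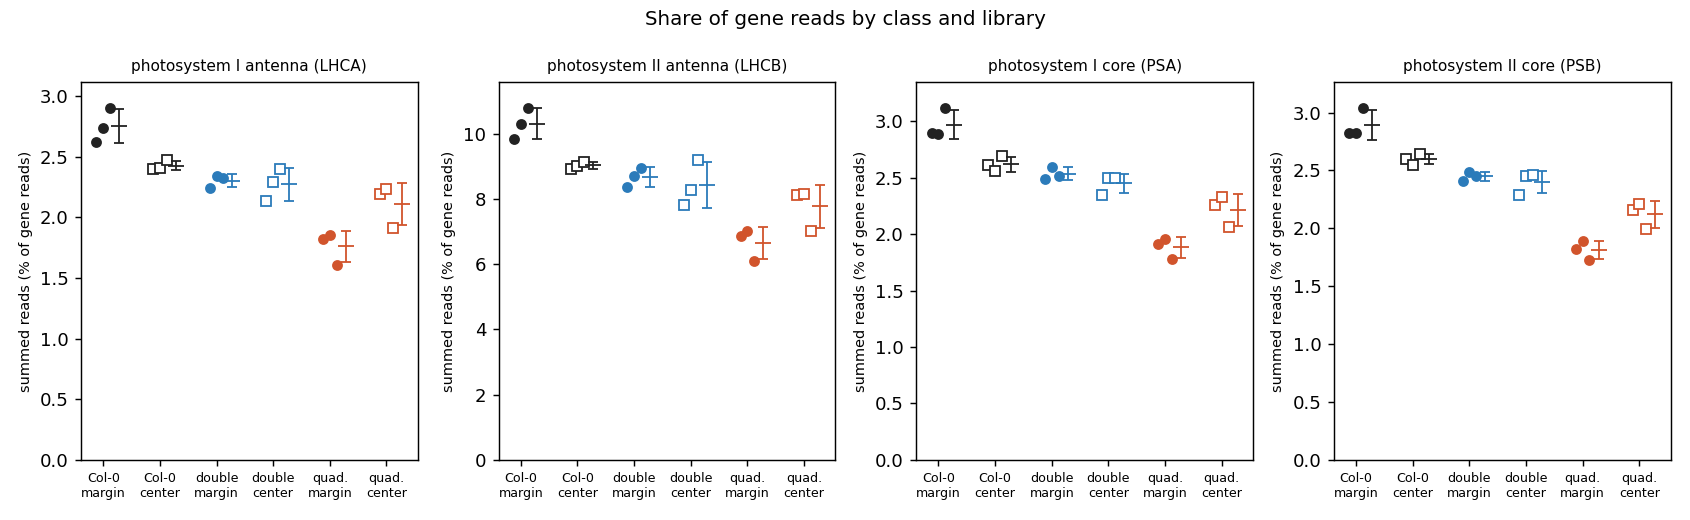
Reads of each class as a percent of all gene reads (y axes, from 0) in the 18 libraries, by group (x axis). Filled circles are margin libraries, open squares center libraries, and the line with bars is the mean ± SD of 3 libraries. In each class the Col-0 margin is highest and the quadruple mutant margin lowest, with LHCB means of 10.3% and 6.67%.

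Levels of single members spanned a wide range. Per kilobase of exon, LHCB1.3, one of the genes for the trimeric antenna of photosystem II, was highest in the Col-0 margin at 22025 ± 1126 CPM per kb (SD, n = 3). LHCB7, a gene for a rarely studied antenna-like protein, was lowest at 10.8 ± 0.867 CPM per kb. Between these, LHCB4.3 was at 51.1, LHCA6 at 175 and LHCA5 at 202 CPM per kb, and all others lay between 559 (PSAH1) and 12302 (LHCB1.1). The Col-0 margin had the highest of the 6 group means in 41 members, and the quadruple margin had the lowest in 41. The whole order, Col-0 margin over Col-0 center over both double mutant groups over quadruple center over quadruple margin, held in 38 of the 42. The 4 outside it were LHCB1.3, LHCB1.5, LHCB4.3 and LHCB7.

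**Figure D2:**
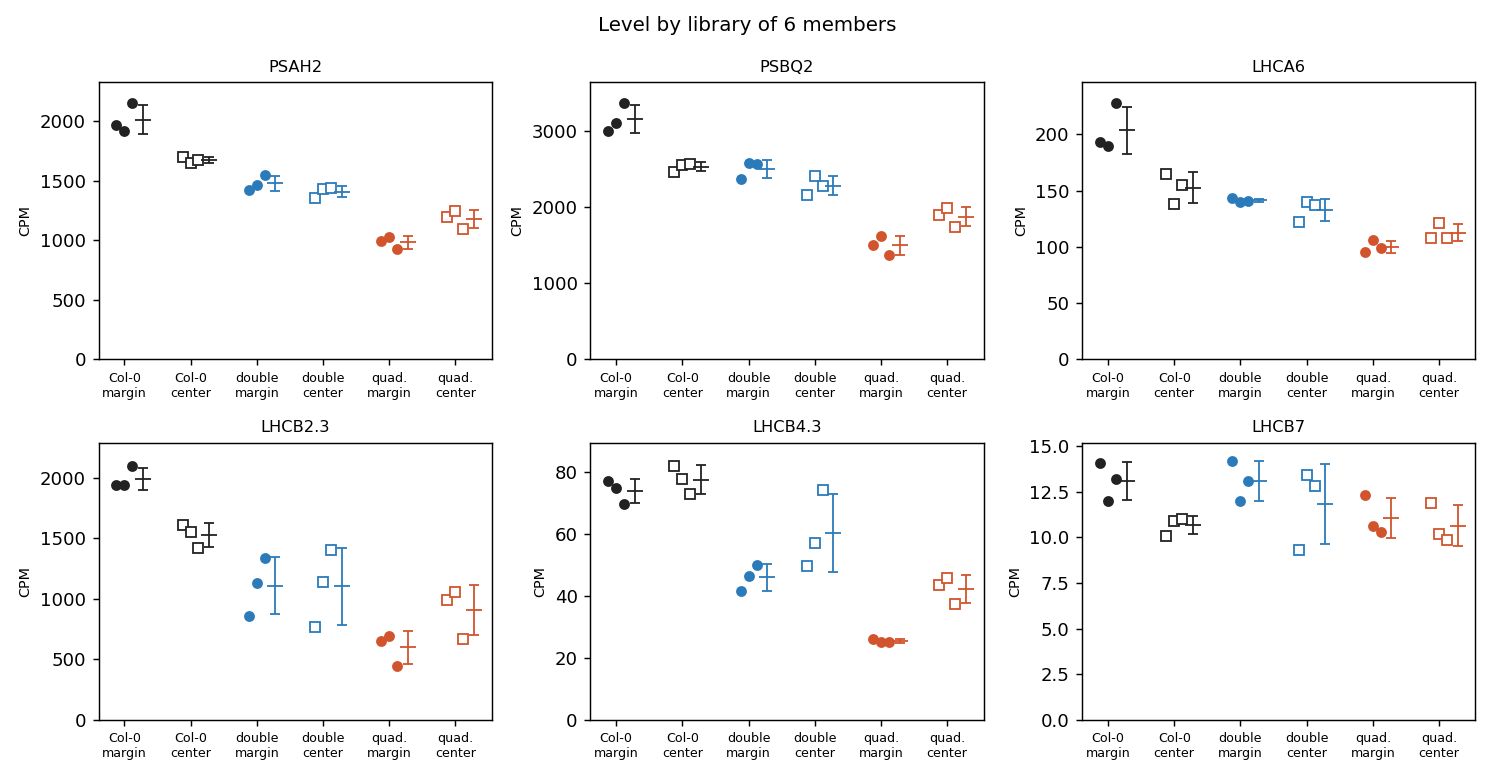
Level in CPM (y axes, from 0) of 6 members in the 18 libraries by group (x axis). Filled circles are margin and open squares center libraries, and the line with bars is the mean ± SD of 3 libraries. PSAH2, PSBQ2 and LHCA6 are highest in the Col-0 margin and lowest in the quadruple margin, LHCB4.3 is not higher in the Col-0 margin than in its center, and LHCB7 stays between 9.32 and 14.2 CPM.

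Margin against center of Col-0 asks whether wild-type leaves differ in these transcripts along the width of the blade. The transcripts were modestly more abundant in the margin: 21 of 42 members were called higher and 0 lower (edgeR quasi-likelihood F test, adjusted p under 0.05, as in all counts below), where 5.30% of all loci tested were called higher and 6.13% lower (11.4% in either direction). The median difference of the members was 0.27 (log2), beside 0.00 for all loci. The calls comprised 9 of 12 PSA, 5 of 9 PSB, 3 of 6 LHCA and 4 of 15 LHCB genes.

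LHCA6, whose product links photosystem I to the NADH dehydrogenase-like complex, had 193, 190 and 228 CPM in the Col-0 margin and 165, 138 and 155 CPM in its center. All 3 margin libraries were above all 3 center libraries, and the difference was 0.42 ± 0.0775 (log2 ± SE, adjusted p = 0.00116, edgeR). PSBQ2, for a protein of the oxygen-evolving complex, had 3008, 3105 and 3370 CPM against 2468, 2559 and 2572 CPM (0.32 ± 0.0676, adjusted p = 0.00332). PSAD2, for a subunit on the ferredoxin side of photosystem I, had 1359, 1367 and 1502 CPM against 1072, 1067 and 1116 CPM (0.38 ± 0.0829, adjusted p = 0.00447). PSAH2, for a subunit at the docking side of mobile antenna, had 1971, 1915 and 2154 CPM against 1702, 1645 and 1672 CPM (0.27 ± 0.0608, adjusted p = 0.00587). The pieces did not overlap in any of these 4 genes, which were picked by adjusted p from the same libraries. Such separation, here and for genes picked in this way below, is a description and no separate evidence.

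LHCB4.3 was the exception in direction, with 77.2, 75.0 and 69.7 CPM in the margin and 82.1, 77.8 and 72.8 CPM in the center, which overlapped (-0.07 ± 0.11, not called). In a fit with a block, that is with margin and center libraries of the same genotype and repetition number compared as pairs, 40 members were called higher, all but LHCB4.3 and LHCB7 (all loci with the block: 11.4% higher, 21.6% in either direction). The pairing rests on correlations between same-numbered libraries, since the labels do not say that they came from the same leaves. Without this block the count rested on single libraries: it was 4 without Col-0 margin 3, 9, 6 and 10 without Col-0 center 1, 2 and 3, and 33 without quadruple center 3. It was 33 with no filter on low counts. The median difference of the members stayed between 0.22 and 0.29 in the 18 fits that left out 1 library. Shares of all loci called in these fits are not given here.

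In the margin of the quadruple mutant nearly every one of these transcripts fell, most of them by similar amounts. Against the Col-0 margin, 41 of 42 members were called lower and 0 higher, where 22.1% of all loci tested were called higher and 21.8% lower (43.9% in either direction). The median difference of the members was -0.98, beside 0.03 for all loci. The quartiles of the differences were -1.04 and -0.92, and 30 of the 42 lay between -1.1 and -0.9, with 6 below and 6 above. The count was 41 in every one of the 18 fits that left out 1 library.

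PSAH2 had 995, 1025 and 921 CPM in the quadruple margin, against 1915 to 2154 CPM in the Col-0 margin given above. This is 48.7% of the wild-type level (-1.04 ± 0.0614, adjusted p = 5.89e-11). PSBQ2 had 1495, 1615 and 1375 CPM, 47.3% of the wild-type level (-1.08 ± 0.0683, adjusted p = 1.51e-10). PSBQ1, its paralog, went from 2735, 2684 and 2887 CPM in the Col-0 margin to 1399, 1479 and 1370 CPM (-0.97 ± 0.0618, adjusted p = 1.64e-10, edgeR). PSBX, for a small membrane subunit of photosystem II, went from 2808, 2708 and 3043 CPM to 1478, 1526 and 1349 CPM (-0.98 ± 0.0688, adjusted p = 6.04e-10). In all 4 genes, picked by adjusted p, every quadruple library was below every Col-0 library of the margin.

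By role, every class held members that fell in this way. The genes for the oxygen-evolving complex, which splits water (PSBO1, PSBO2, PSBP1, PSBQ1 and PSBQ2), lay between -1.10 and -0.90. All 12 PSA genes lay between -1.04 (PSAH2) and -0.78 (PSAE2), among them PSAF, for the subunit that docks plastocyanin, at -0.88. Of the antenna of photosystem I, LHCA1 to LHCA4 lay between -0.98 and -0.91. The genes for the monomeric antenna proteins of photosystem II, LHCB4.1, LHCB4.2, LHCB5 and LHCB6, lay between -1.09 and -0.98, whereas LHCB4.3, the third LHCB4 gene, was at -1.54.

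**Figure D3:**
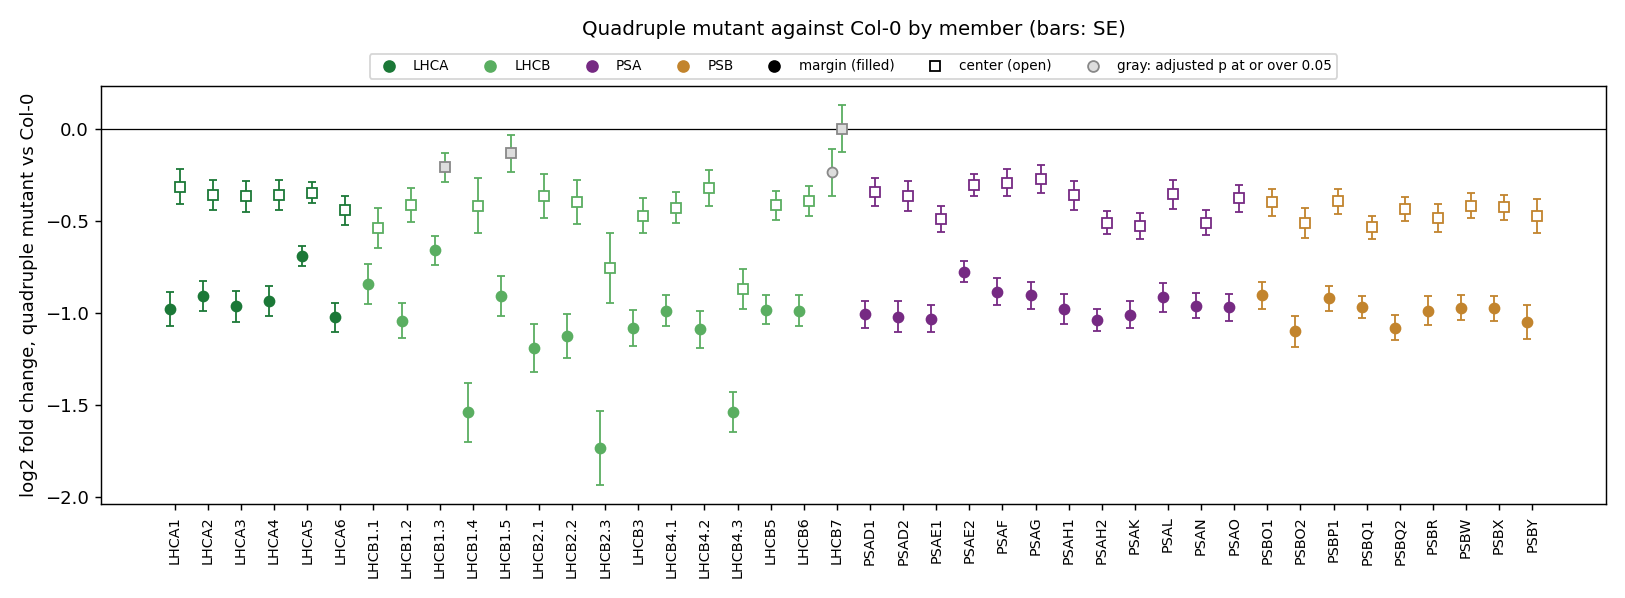
Log2 fold change of the quadruple mutant against Col-0 (y axis) for the 42 members (x axis), in the margin (filled circles) and the center (open squares), with SE as bars. Colors are the 4 classes, and gray symbols did not pass the adjusted p threshold of 0.05. Most margin values lie near -0.98 and most center values near -0.40, with LHCB2.3, LHCB1.4 and LHCB4.3 lowest and LHCB7 highest in the margin.

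The members farthest from the median change were LHCB genes with the addition of LHCA5. LHCB2.3, a gene for a trimeric antenna protein that is phosphorylated in state transitions, had 653, 695 and 446 CPM in the quadruple margin, against 1943, 1939 and 2096 CPM in the Col-0 margin. The groups were far apart, and the level was 30.0% of wild type (-1.74 ± 0.20, adjusted p = 4.25e-07). Of its 50-base words, 38.6% lie in an overlapping locus whose reads were 1.70% of those of LHCB2.3. LHCB1.4 went from 3804, 4092 and 4727 CPM in Col-0 to 1589, 1658 and 1092 CPM in the mutant, or 34.4% (-1.54 ± 0.16, adjusted p = 8.11e-08). LHCB1.4 shares 13.7% of its 50-base words with loci elsewhere, as many with LHCB1.5 as with AT2G08665, which overlaps LHCB1.5. Reads aligned to several places were counted apart from the loci, so reads of these stretches may be missing from its count. LHCB4.3, a minor antenna gene known to be used under high light, went from 69.7 to 77.2 CPM in Col-0 to 26.1, 25.2 and 25.0 CPM, also 34.4% (-1.54 ± 0.11, adjusted p = 1.15e-09).

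At the other end, LHCA5, whose product like that of LHCA6 joins photosystem I to the NADH dehydrogenase-like complex, had 137, 133 and 131 CPM in the quadruple margin, against 222, 212 and 214 CPM in the Col-0 margin. The groups did not overlap, and the level was 62.0% (-0.69 ± 0.0560, adjusted p = 4.18e-09). LHCB1.3 had 17056, 18340 and 16102 CPM in the quadruple margin, against 25599, 27338 and 28336 CPM in that of Col-0, or 63.4% (-0.66 ± 0.0795, adjusted p = 9.05e-07), and it shares 17.0% of its 50-base words with loci elsewhere, mostly LHCB1.1. LHCB7 had 12.3, 10.6 and 10.3 CPM in the quadruple margin, against 14.1, 12.0 and 13.2 CPM in that of Col-0, which overlapped, and it was not called (-0.24 ± 0.13, adjusted p = 0.142). The size of the fall had no close relation to the level over the 42 members (Pearson's r = -0.123, Spearman's rho = 0.233, given as a description, since the members share the same libraries).

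In the center of the quadruple mutant the same genes were lower by a smaller amount. There 39 of 42 members were called lower and 0 higher, where 15.2% of all loci were called higher and 15.8% lower (31.1% in either direction), and their median difference was -0.40. PSBQ1 had 2466, 2374 and 2449 CPM in the Col-0 center and 1685, 1802 and 1548 CPM in the quadruple center (-0.53 ± 0.0614, adjusted p = 2.13e-06, edgeR). PSAH2 had 1702, 1645 and 1672 CPM against 1195, 1244 and 1090 CPM (-0.51 ± 0.0609, adjusted p = 3.43e-06). LHCB4.3 had 82.1, 77.8 and 72.8 CPM against 43.6, 45.9 and 37.3 CPM (-0.87 ± 0.11, adjusted p = 5.21e-06). PSAK, for a small subunit at the edge of photosystem I, had 2526, 2465 and 2466 CPM against 1776, 1861 and 1535 CPM (-0.53 ± 0.0708, adjusted p = 1.26e-05). The libraries of the genotypes did not overlap in these 4 genes, which were picked by adjusted p.

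Members not called in the center were LHCB1.3, LHCB1.5 and LHCB7. The fitted difference was more negative in the margin than in the center for all 42 members, which is the sign of the interaction given below. The share of all loci with that sign was not counted. Over the members, the margin and center differences were related (r = 0.747, rho = 0.536, a description over 42 genes, in pieces whose same-numbered libraries correlated). LHCB2.3 and LHCB4.3, low in the margin, were also the lowest in the center at -0.76 and -0.87, whereas LHCB1.4 was at -0.42 there.

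The direction of the difference between pieces was opposite in Col-0 and the quadruple mutant. Within the quadruple mutant the margin was called lower than the center in 39 members and higher in 0, where 12.1% of all loci were called higher and 13.5% lower (25.6% in either direction), with a median of -0.31. Those not called were LHCA6, LHCB1.1 and LHCB7. In 40 of 42 members the difference was positive in Col-0 and negative in the quadruple mutant, and 20 were called both ways. The share of all loci with such opposite differences was not counted. The difference between those differences, tested itself as an interaction, was called negative in 40 members and positive in 0, where 7.96% of all loci were called positive and 9.19% negative (17.2% in either direction). Its median over the members was -0.58. In the fit with pairs as a block, 40 members were called lower in the quadruple margin (all loci: 18.6% lower, 36.3% in either direction) and 41 negative in the interaction (all loci: 15.2% negative, 28.1% in either direction).

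For PSBQ2 the margin mean exceeded the center mean in Col-0 as given above, while in the quadruple mutant the margin had 1495, 1615 and 1375 CPM and the center 1899, 1985 and 1741 CPM. Every margin library was below every center library, and the interaction was -0.65 ± 0.0956 (adjusted p = 8.57e-05, edgeR). PSAD1, for the ferredoxin-side subunit, had 2877, 2787 and 3033 CPM in the margin and 2438, 2269 and 2446 CPM in the center of Col-0. In the quadruple mutant it had 1432, 1534 and 1357 CPM in the margin and 1928, 2053 and 1661 CPM in the center (interaction -0.67 ± 0.11, adjusted p = 1.81e-04). PSAG, for a small membrane subunit of photosystem I, went from 2897, 2948 and 3345 CPM over 2465, 2447 and 2646 CPM in Col-0 to 1628, 1719 and 1566 CPM under 2097, 2279 and 1886 CPM in the quadruple mutant (interaction -0.63 ± 0.10, adjusted p = 2.58e-04). PSAH2 had an interaction of -0.53 ± 0.0860 (adjusted p = 2.21e-04). In these genes, picked by adjusted p, neither genotype had overlapping pieces, and the order of the pieces was opposite in the 2 genotypes.

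**Figure D4:**
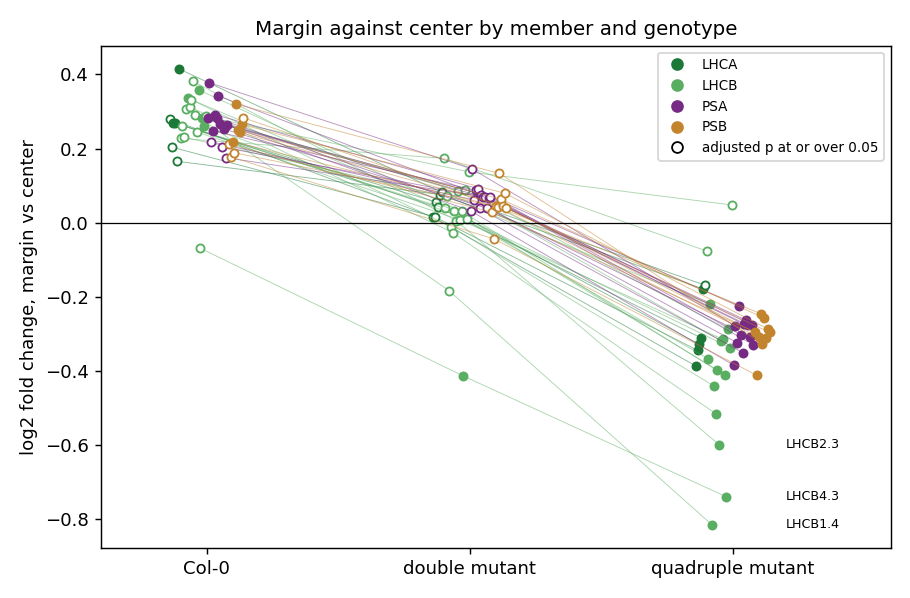
Log2 fold change of margin against center (y axis) for the 42 members in the 3 genotypes (x axis), with 1 line per member. Filled symbols passed the adjusted p threshold of 0.05 and open ones did not, and colors are the 4 classes. The medians are 0.27 for Col-0, 0.05 for the double and -0.31 for the quadruple mutant, and LHCB1.4, LHCB4.3 and LHCB2.3 lie lowest in the quadruple mutant.

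The double mutant, which keeps TCP3 and TCP10, lay between the other genotypes in the margin. Against the Col-0 margin 39 members were called lower and 0 higher (all loci: 6.33% higher, 7.81% lower, 14.1% in either direction), with a median of -0.39, and those not called were LHCB1.1, LHCB1.3 and LHCB7. PSAH2 had 1417, 1463 and 1548 CPM there, below every Col-0 margin library and above every quadruple margin library (-0.45 ± 0.0609 against Col-0, adjusted p = 5.31e-05, edgeR). LHCB2.3 had 862, 1129 and 1338 CPM (-0.85 ± 0.19, adjusted p = 0.00518). The quadruple margin was in turn lower than the double mutant margin in 41 members (all loci: 12.2% higher, 13.6% lower, 25.8% in either direction), with a median of -0.59 and LHCB7 not called. The comparisons with Col-0 share the Col-0 libraries.

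In the center of the double mutant the differences from Col-0 were small. There 3 members, PSAH2, PSAK and PSBQ1, were called lower than in the Col-0 center (all loci: 3.58% higher, 2.57% lower, 6.15% in either direction), with a median of -0.18. PSAK had 1927, 2074 and 2191 CPM, below its 3 Col-0 center libraries (-0.27 ± 0.0707, adjusted p = 0.0272, edgeR). This count was 0, 1 and 1 without Col-0 center 1, 2 and 3, and 0, 1 and 10 without double mutant center 1, 2 and 3, and it was 5 with DESeq2. The median was -0.11 without double mutant center 1 and -0.24 without double mutant center 3. Between the quadruple and double mutant centers 14 members were called lower (all loci: 3.56% higher, 4.37% lower, 7.93% in either direction), with a median of -0.23. That count was 4 without double mutant center 2 or 3, 8 without quadruple center 1 or quadruple margin 1, and 3 without quadruple center 3, where the median was -0.13. LHCB4.3 was among the 14 (-0.52 ± 0.11, adjusted p = 0.00551).

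Between the pieces of the double mutant 1 member, LHCB4.3, was called, lower in the margin with 41.5, 46.4 and 50.1 CPM against 49.5, 57.1 and 74.3 CPM in the center (-0.41 ± 0.11, adjusted p = 0.0256, edgeR). Of all loci, 2.47% were called higher and 5.04% lower there (7.51% in either direction). The pieces overlapped, and LHCB4.3 was not called without double mutant margin 1 or 2 or center 3. The median of the members was 0.05, and it was -0.01 without double mutant center 1, 0.02 without margin 3 and 0.11 without center 3. In the fit with the block 5 members were called: the 3 genes LHCB1.1, PSAD2 and PSBQ2 were higher in the margin, and the 2 genes LHCB1.4 and LHCB4.3 lower (all loci: 8.00% higher, 9.12% lower, 17.1% in either direction). The interaction of the double mutant with Col-0 gave 0 called members with edgeR (all loci: 0.332% positive, 0.107% negative, 0.439% in either direction) and 0 with DESeq2, while 10 had an unadjusted p under 0.05. The fit with the block gave 35, all negative (all loci: 3.60% negative, 7.58% in either direction), and those not called were LHCA5, LHCB1.1, LHCB7, PSAE2, PSAK, PSAN and PSBQ1.

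The share of each paralog in the reads of its pair does not depend on scaling between libraries, and 7 shares were tested over the 3 genotypes in each piece (14 tests, exact permutation test over 1680 assignments, 2-sided, smallest p possible 0.00357, Benjamini-Hochberg adjusted over the 14). PSAD1 took 67.3% ± 0.546 of the pair PSAD1 and PSAD2 in the Col-0 margin (SD, n = 3) and 67.5% ± 0.380 in the quadruple margin (exact p = 0.707, adjusted 0.750). The shares of PSAH1, PSBO1 and PSBQ1 had adjusted p from 0.0700 to 0.408 in either piece, and that of LHCB4.1 had 0.106 in the margin.

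PSAE1, for a stromal subunit of photosystem I, took 78.7%, 77.8% and 77.5% of the reads of PSAE1 and PSAE2 in the margin of Col-0, 75.8%, 76.8% and 77.9% in the double mutant margin, and 74.9%, 74.6% and 74.9% for the quadruple mutant (exact p = 0.0107, adjusted 0.0375). Every quadruple library was below every Col-0 library, and the double mutant overlapped Col-0. In the center the same share went from 78.3% to 76.0% and missed the threshold (exact p = 0.0571, adjusted 0.106). PSAE1 and PSAE2 each overlap a neighboring locus, whose reads were 2.64% of those of PSAE1 and 14.6% of those of PSAE2.

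LHCB4.3 took 0.981%, 0.931% and 0.777% of all LHCB4 reads in the margin of Col-0, against 0.625%, 0.570% and 0.680% in that of the quadruple mutant, with the double mutant at 0.703% to 0.803% (exact p = 0.0107, adjusted 0.0375). In the center it took 1.17%, 1.17% and 1.05% in Col-0 and 0.812%, 0.798% and 0.832% in the quadruple mutant, with the double mutant at 0.911% to 1.1% (exact p = 0.00714, adjusted 0.0375). LHCB4.1 took 70.8% to 71.0% of LHCB4.1 and LHCB4.2 reads in the Col-0 center, 71.4% to 72.3% in that of the double mutant and 68.9% to 69.8% in that of the quadruple mutant, 3 ranges that did not overlap (exact p = 0.00357, adjusted 0.0375). In the margin its mean share went the other way, from 69.3% in Col-0 to 70.8% in the quadruple mutant, and was not called. The PSAE1 margin share lost its call in 8 of the 9 fits without 1 library of that piece, the LHCB4.3 shares in 8 of 9 in the margin and 6 of 9 in the center, and the LHCB4.1 center share in 6 of 9, where fewer assignments also raise the smallest p. Within LHCB1 and LHCB2, chosen after their values were seen and given with no test, LHCB1.4 went from 5.93% to 3.64% and LHCB1.3 from 38.2% to 43.6% of LHCB1 reads between the Col-0 and the quadruple margin. LHCB2.3 went from 23.3% to 16.7% of LHCB2 reads, and all but LHCB2.3 of these genes share 50-base words with loci elsewhere, at 10.6% to 28.2%.

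Other genes of photosynthesis moved with the members in the quadruple mutant margin. All 6 of 6 other nuclear genes for photosystem or thylakoid membrane proteins were called lower. Among them, CURT1B, for a protein that curves thylakoid membranes, was at -1.22 ± 0.0737. PSB27, an assembly factor of photosystem II, was at 50.1% of its level in the Col-0 margin. In electron transport 13 of 13 were lower, with ATPD, for the delta subunit of the chloroplast ATP synthase, at -1.29 ± 0.0684. In the Calvin cycle 19 of 19 were lower, with RBCS1A, for the small subunit of Rubisco, at -0.96 ± 0.0832, and in chlorophyll synthesis 14 of 14, with CRD1, an enzyme of ring closure, at -1.01 ± 0.0750. All 5 of 5 assembly and thylakoid kinase genes were lower too, between -0.74 and -0.25. The medians were -0.95, -0.87, -0.81, -0.64 and -0.54, beside -0.98 for the members and 0.03 for all loci. In the quadruple center 6 of 6, 12 of 13, 18 of 19, 12 of 14 and 4 of 5 of these lists were lower.

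Regulators of nuclear photosynthesis genes did not move one way. Of 5 such genes in the quadruple margin, 2 were called lower, the activators GLK1 at -0.70 ± 0.0788 and GLK2 at -0.52 ± 0.11, and HY5, an activator in light signaling, was called higher at 0.67 ± 0.17 (adjusted p = 0.00313, edgeR). Of these, 1 was called lower in the center. Genes for sigma factors of the plastid RNA polymerase, which transcribes chloroplast genes and none of the members, were lower in 4 of 4 cases in the margin, with SIG5 at -1.10 ± 0.18, and in 2 of 4 in the center. Of 4 genes for light-stress relatives of the antenna, OHP1 and OHP2 were lower at -0.80 and -0.95 and ELIP1 was higher at 0.67 ± 0.22.

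**Figure D5:**
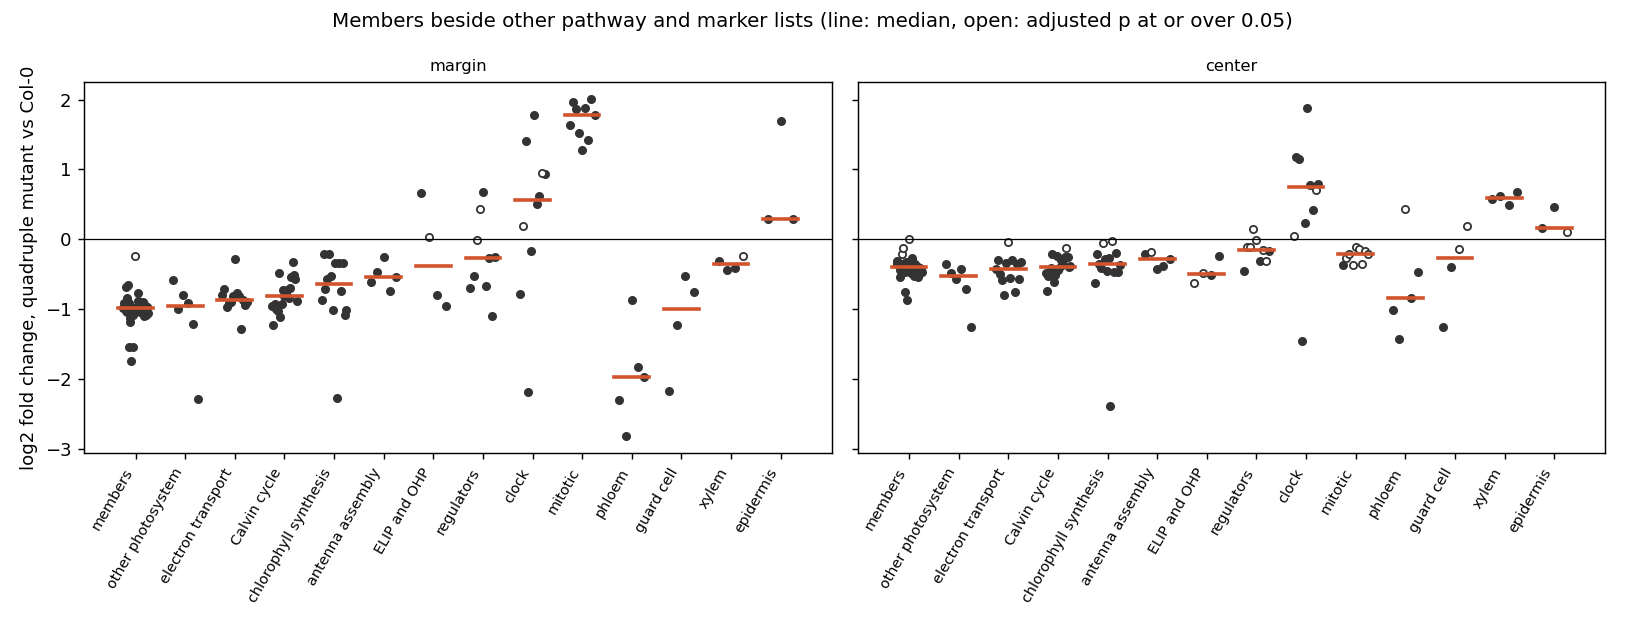
Log2 fold change of the quadruple mutant against Col-0 (y axes) of every gene in the members and 13 other lists (x axis), in the margin (left) and the center (right). Points are genes, open points did not pass the adjusted p threshold of 0.05, and lines are list medians. Medians of the photosynthesis lists lie below 0 in both pieces, and the mitotic list has a median of 1.78 in the margin and -0.21 in the center.

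Markers of dividing cells rose in the margin of both mutants and were not called higher in the center of either. In the quadruple margin 9 of 9 mitotic genes were called higher (median 1.78), with MAP65-3, for a microtubule bundling protein of the dividing cell plate, at 1.87 ± 0.11. Their summed level was 445 to 520 CPM in the quadruple margin, against 146 to 159 CPM in the Col-0 margin, with no gene at 0. Between pieces they were lower in the Col-0 margin (9 of 9, median -0.84) and higher in the quadruple margin (9 of 9, median 1.19). In the quadruple center, where 39 members were called lower, 0 mitotic genes were called higher and 1 of 9 lower, with sums of 206 to 254 CPM against 253 to 292 CPM in the Col-0 center. In the double mutant margin all 9 mitotic genes were called higher than in Col-0, with MAP65-3 at 0.90 ± 0.12, and 39 members were called lower. In its center 0 mitotic genes and 3 members were called against Col-0. Mitotic sums in the double mutant were 217 to 278 CPM in the margin and 213 to 308 CPM in the center. The part of dividing cells in these results was not tested.

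Other lists also moved beside the members. In the quadruple margin 5 of 10 clock genes were called higher and 3 lower, with PRR5 at 1.77 ± 0.23, TOC1 at 1.41 ± 0.22, PRR9 at -2.19 ± 0.21 and CCA1 at -0.79 ± 0.18, and 7 were higher and 1 lower in the quadruple center. Summed over these clock genes, which moved in both directions, levels were 403 to 454 CPM in the quadruple margin, against 350 to 355 CPM in the Col-0 margin. All 5 phloem markers were lower in the quadruple margin (median -1.97), with sums of 457 to 510 CPM in Col-0 and 105 to 121 CPM in the mutant, and 4 of 5 were lower in its center. All 4 guard cell markers were lower in the margin and 2 of 4 in the center, 3 of 4 xylem markers were lower in the margin and 4 of 4 higher in the center, and 3 of 3 epidermis markers were higher in the margin and 2 of 3 in the center. None of these markers was at 0 in any group. The 7 chloroplast loci were called lower in the quadruple margin (median -2.59), with adjusted p from 0.0176 (PSBA) to 0.0491 (RBCL, edgeR). Their sum was 48.5 to 57.0 CPM there against 92.6 to 696 CPM in Col-0, whose first library was one of those that stood apart. The other Col-0 margin libraries had 124 and 92.6 CPM. The calls of these loci were not rechecked without that first library. In the center the median of these loci was 0.02, with sums of 76.2 to 103 CPM in the quadruple mutant and 79.9 to 97.8 CPM in Col-0. The part of the clock and of these tissues in the members' change was not tested. Without both libraries that stood apart, counts of called members were 41 in the quadruple margin, 39 in its center, 40 in the interaction and 18 between the pieces of Col-0. Shares of all loci called in that fit are not given here.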

How the data were processed

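RNA-seq of 18 libraries (6 groups of 3) was analysed from 1 table of raw read counts per locus, as the authors deposited it: 33602 loci, with 5 summary rows kept out of library sizes and tests (reads aligned to several places were 3.71% to 16.0%, ambiguous reads 1.38% to 1.57%). Per the submitters' processing notes, the tools were HTSeq 0.7.2, TopHat2 2.0.13 and edgeR 3.8.6, with the build TAIR10. Their options, whether strand was used in counting and which annotation was read are not stated in the labels. So 16 members that overlap another counted locus, and 8 that share 50-base words with loci elsewhere (8.76% to 28.2% of them), are uncertain. RNA was prepared with TRIzol, DNase and an Illumina TruSeq RNA kit, per the labels.

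Counts were tested with edgeR 4.0.16 (R 4.3.3): TMM scaling, filterByExpr by group (17763 loci left), 1 mean per group, quasi-likelihood F test, 2-sided, Benjamini-Hochberg adjustment over all loci tested, adjusted p under 0.05. The procedure was tested on simulated counts. It missed many small changes there, and its pass criterion was relaxed to large changes after the first run. SE is the log2 fold change over the root of F. Alternatives were DESeq2 1.42.0, other scalings, no filter, each library left out, and a block. P-values measure the spread between libraries, each a pool of plants. The members and lists were chosen with earlier results of these data known.

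Gene symbols, exon lengths, overlaps and promoters came from TAIR10.1, matched by locus. The table itself has no coordinates. Named members were those with the lowest adjusted p (4 each way) in margin against center of Col-0, in both comparisons of the quadruple mutant with Col-0 and in its interaction, the 3 farthest each way from the median, and the paralog pairs. From other lists up to 3 each way were eligible. The labels do not say that same-numbered margin and center libraries share leaves. They were taken as pairs from the data: over the 5000 most variable loci, same-numbered pieces correlated at 0.196 to 0.384 after group means were removed (9 pairs), other numbers at -0.238 to 0.0383, and all 18 libraries correlated best with their own number. The pairs were therefore also used as a block. Across genotypes the same number gave -0.233 to 0.173 and pairs nothing.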

Additional observations from a re-analysis of the deposited data

Results flagged for a closer look

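The margin minus center difference of 40 members differed between the quadruple mutant and Col-0 by the test of the interaction (edgeR, adjusted p under 0.05), each of them more negative in the mutant. The members with the lowest adjusted p were PSBQ2 at -0.65, PSAD1 at -0.67, PSAH2 at -0.53 and PSAG at -0.63 (log2). All 3 libraries a group showed the direction in these 4 genes, with margin above center in Col-0 and below it in the quadruple mutant. Since the genes were picked by adjusted p from the same libraries, this is a description and no separate evidence.

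Outside the counted genes, double mutant margin 3 had 16.0% of its reads aligned to several places, where the highest Col-0 library had 8.60%. Leaving out this library and Col-0 margin 1 together, a choice made after seeing the data, left the count of the interaction at 40. The share of all loci called in that fit is not given here. Their part in other results was not tested beyond the counts given.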

How the results depend on the processing

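Counts of members called in the quadruple mutant margin (41), in its center (39), in the double mutant margin (39), between the mutant margins (41) and in the interaction of the quadruple mutant (40) stayed within 1.5 times under DESeq2, other scalings, no filter, the block and each left-out library. Left-out libraries gave 41 to 41, 33 to 40, 38 to 41, 41 to 41 and 39 to 40. The 528 alternative values of the members picked by the naming rule, each in the comparison that picked it, kept their direction and call. No filter on low counts gave 33 instead of 21 between the pieces of Col-0, and DESeq2 gave 5 instead of 3 in the double mutant center. With the replicate block the counts were 40 in margin against center of Col-0, 5 in that of the double mutant (3 higher and 2 lower, against 1 lower without it) and 35 in the double mutant interaction, and the block changed no other count by over 1.5 times. The cause was not tested. Left-out libraries gave 4 to 33 in margin against center of Col-0, 26 to 39 in that of the quadruple mutant, 0 to 1 in that of the double mutant, 0 to 10 in the double mutant center, 3 to 19 between the mutant centers and 0 to 0 in the double mutant interaction.

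Paralog shares are given as quadruple minus Col-0 in percentage points. With libraries left out, the PSAE1 margin share ranged from -3.42 to -2.86, the LHCB4.3 shares from -0.331 to -0.229 in the margin and from -0.356 to -0.296 in the center, and the LHCB4.1 center share from -1.74 to -1.30. Most of these no longer passed the threshold, with fewer assignments possible. The PSAD1 share, which passed no test, ranged from -0.0332 to 0.495 in the margin, with -0.0213 without Col-0 margin 3, and from -0.0313 to 0.910 in the center. In the promoter window of 250 bases before and 50 after the start, 15 members held a G-box and 17 an I-box. The window of 300 bases before the start was adopted after the first shares had been seen, to leave out transcribed bases. LHCB7 had the lowest level of the members, 9.32 to 14.2 CPM.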
